A study of Homo sapiens with 6 samples.

Results

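Milk and mammary secretory products were followed here as 10 transcripts in T47D cells that carried a prolactin lentivirus: PIP, AZGP1, MUC1, SLC34A2, PIGR, CLU, MFGE8, LTF, BTN1A1 and XDH. They were chosen by gene symbol, and all 10 were found among the 17891 genes of the deposited table. T47D is an established human breast cancer line of luminal type. The 3 PRL libraries came from T47D-PRL cells, transduced with a PLVX-puro lentivirus that holds PRL, the prolactin gene. The 3 control libraries came from T47D-PLVX cells, which carried the control lentivirus. The transduced cells had been screened before RNA was taken. All cells had grown for 2 days in RPMI1640 with serum, without other treatment, and the replicates are described as biological. Whether the lentiviral cells were pools or single clones is not given in the sources used here.

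Prolactin binds its receptor on the secretory epithelium of the breast and, through the kinase JAK2, activates the transcription factor STAT5, which turns on genes of milk protein in the lactating gland. The products differ in where they go. PIP, AZGP1, CLU and LTF are soluble and secreted. MFGE8, BTN1A1, XDH and MUC1 sit in or on the membrane that wraps the milk fat globule. PIGR carries antibodies across the cell, and SLC34A2 moves phosphate.

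Libraries held 16211146 to 17402348 rounded counts, and 3 counts, the floor used for a level near 0, stood for 0.165 to 0.203 CPM, the count scaled to library size. PRL transcript matched the labels, with 8277, 8097 and 7789 counts in the PRL libraries against 3, 3 and 1 in the controls. Pairs of control libraries differed more (chi-square of 11.2 to 21.2 per gene) than pairs of PRL libraries (1.59 to 2.02), and control 3 lay nearest to the PRL libraries on the first principal component. The libraries expressed the luminal markers: the 8 listed genes, among them KRT8 and GATA3, summed to 17259 to 17476 TPM in PRL libraries and 17630 to 19290 TPM in controls. KRT8, KRT18 and KRT19 made up most of the luminal sum in both groups. These 3 and ESR1 fell, CDH1, GATA3 and FOXA1 rose, and EPCAM did not pass. The calls of KRT19, ESR1 and GATA3 changed under some alternatives. Listed genes of other cell types were scarce in comparison. Basal and myoepithelial genes summed to 15.2 to 17.1 TPM in PRL libraries and 16.9 to 19.9 TPM in controls, with KRT5 at 0 to 2 counts in any library. ACTA2 made up most of the basal sum and fell to 9.06 TPM in the PRL group, against 15.0 TPM in controls, whereas TP63, OXTR and KRT17, all under 3 TPM, rose and 1 of the 5 tested did not pass. The 10 immune genes summed to 26.2 to 28.8 TPM in PRL libraries and 9.07 to 11.8 TPM in controls, and the 8 stromal genes to 26.1 to 27.3 TPM and 11.9 to 16.8 TPM. CD68, a macrophage lysosomal gene, held 16.6 TPM of the immune sum in the PRL group and 2.90 TPM in controls, while PTPRC, the pan-leukocyte gene, had 12 to 20 counts in PRL libraries and 13 to 16 in controls. Among the tested immune genes CD68, CD14 and CD3E rose, LYZ fell, and PTPRC did not pass. CD14 passed the filter on low counts through the PRL libraries alone. Both tested stromal genes, THY1 and COL1A1, rose. Their part in the results below was not tested.

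Of the 10 transcripts, 7 had enough counts to be tested, 5 of them were higher in the PRL group, CLU was lower and PIGR did not pass. The test was edgeR's quasi-likelihood test with Benjamini-Hochberg adjustment over 14076 genes and a threshold of 0.05. It called 62.9% of all genes, 32.4% higher and 30.5% lower in the PRL group, so a called gene is common in this comparison and the size of a change says more. LTF entered the test through its PRL libraries alone, which makes the count of 5 and any median over the 7 a description. At least 2-fold changes with that call were seen for PIP, AZGP1 and LTF, in a direction that 10.6% of all genes took by as much, and for CLU, where 5.29% did. The libraries of the 2 groups did not overlap in CPM for 6 of the 7, PIGR being the exception, against 69.5% of all genes. BTN1A1 and SLC34A2 were below detection, with at most 3 counts in any library, and XDH was low. The median log2 fold change of the 7 tested transcripts was 0.62, against 0.01 over all genes tested. In bulk RNA, a change in the share of cells that express a gene and a change in RNA per cell cannot be told apart. Levels below are given as TPM, which divides by transcript length and allows genes to be compared, and fold changes come from counts on the scale of edgeR's trimmed mean of M values (TMM).

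PIP encodes prolactin-inducible protein, also known as gross cystic disease fluid protein, a small secreted glycoprotein of apocrine and breast epithelium. It is NCBI gene 5304, on GRCh38 chromosome 7 from 143132077 to 143139746 on the plus strand, with 4 exons that no other annotated gene overlaps. Its level was 7186, 7647 and 7480 TPM in the PRL libraries and 261, 331 and 299 TPM in the controls. The groups lay far apart, and the lowest PRL library stood over all controls by more than the whole spread within either group. Ranked by TPM within a library, PIP was the 8th, 8th and 9th most abundant transcript in the PRL libraries and stood at ranks 541, 432 and 484 in the controls. It took up 0.719% to 0.765% of all TPM in the PRL libraries. In counts the log2 fold change was 4.20 (SE 0.10, edgeR adjusted p = 8.4e-10), an 18.4-fold difference, which ranked 88 among the 14076 tested genes. Under 19 alternative settings the log2 fold change lay between 4.17 and 4.65.

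The stretch before the PIP start is shown because STAT5 binds DNA of the form TTCNNNGAA, and it is set beside that of AZGP1, which also rose, and of LTF. Each is the 250 bases before a start listed by RefSeq on GRCh38.p14, written 5′ to 3′ along the gene. Capitals mark every match to TTCNNNGAA, which reads the same on both strands, and to TGTTCT on either strand, the core of the element bound by the glucocorticoid receptor.
PIP, plus strand, chr7:143131827-143132076: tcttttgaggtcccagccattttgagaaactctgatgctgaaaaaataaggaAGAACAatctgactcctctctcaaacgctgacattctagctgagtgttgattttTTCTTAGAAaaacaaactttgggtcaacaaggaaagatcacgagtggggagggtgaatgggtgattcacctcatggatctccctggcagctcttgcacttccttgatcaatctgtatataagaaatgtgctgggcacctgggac
AZGP1, minus strand, chr7:99976032-99976281: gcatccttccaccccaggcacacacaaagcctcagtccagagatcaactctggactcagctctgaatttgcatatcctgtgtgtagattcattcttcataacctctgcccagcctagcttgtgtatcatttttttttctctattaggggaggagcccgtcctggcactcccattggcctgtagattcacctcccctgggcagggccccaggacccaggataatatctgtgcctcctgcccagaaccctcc
LTF, minus strand, chr3:46463655-46463904: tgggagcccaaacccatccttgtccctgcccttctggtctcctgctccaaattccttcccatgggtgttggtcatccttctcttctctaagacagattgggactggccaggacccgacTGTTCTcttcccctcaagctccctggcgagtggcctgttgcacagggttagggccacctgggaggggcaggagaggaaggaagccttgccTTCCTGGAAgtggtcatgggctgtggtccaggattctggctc
The PIP window holds the match ttcttagaa from 144 to 136 bases before the start, and agaaca from 198 to 193 bases before it. The AZGP1 window holds neither. LTF has 3 listed starts, and the window shown, the only one of them with TTCNNNGAA, holds ttcctggaa from 42 to 34 bases before its start and tgttct from 132 to 127. The LTF window shown lies inside the annotated gene, which runs from 46435645 to 46485234 on the minus strand of chromosome 3. Which LTF start the cells used was not tested. The table of windows covered 9 of the 10 genes with 14 windows, and it has no entry for CLU. TTCNNNGAA occurred in 2 of the 14 windows, of PIP and LTF, and TGTTCT in 6, of PIP, LTF, MUC1 and PIGR. The MUC1 windows overlap and hold the same match, so that site is counted more than once. Of 35116 windows of the same length in the whole table, 6.57% hold TTCNNNGAA and 12.4% hold TGTTCT. A match describes letters and not binding, and a window without a match says nothing of sites elsewhere.

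AZGP1 encodes zinc-alpha-2-glycoprotein, a secreted relative of class I antigen molecules that mobilises lipid. It lies on chromosome 7 too, from 99966720 to 99976157 on the minus strand (NCBI gene 563). The PRL libraries held 529, 539 and 536 TPM, and the controls 105, 127 and 115 TPM, with no overlap. Its log2 fold change was 1.76 (SE 0.08, edgeR adjusted p = 5.6e-08), and 4.60% of tested genes had a higher one. PIP and AZGP1 thus moved the same way by unequal amounts. The ratio of PIP to AZGP1 TPM was 13.6, 14.2 and 14.0 in the PRL libraries and 2.50, 2.61 and 2.60 in the controls.

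CLU, the gene of clusterin, a secreted chaperone found in milk and many other fluids, went the other way. It is NCBI gene 1191, on chromosome 8 from 27596917 to 27615031. Its level was 243, 236 and 241 TPM in the PRL libraries and 783, 835 and 792 TPM in the controls. The log2 fold change was -2.20 (SE 0.10, edgeR adjusted p = 5.8e-08), a level in the PRL group of 0.218 times that in controls, and it ranked 60 among the falls. CLU was the most abundant of the 10 transcripts in every control library. In the PRL group the order was PIP, MUC1, AZGP1, CLU, MFGE8, and MUC1 and AZGP1 did not overlap, at 564 to 588 and 529 to 539 TPM. The control order was CLU, MUC1, PIP, AZGP1, MFGE8, where the lowest MUC1 library, at 317 TPM, lay inside the range of PIP.

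**Figure D1:**
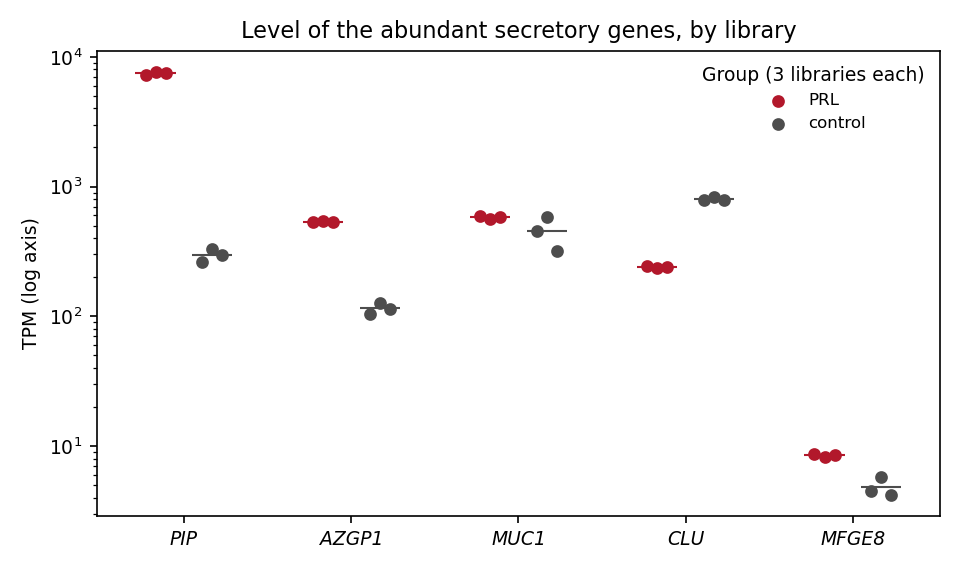
TPM (log axis) of the 5 abundant transcripts in each library, PRL in red at the left and control in grey at the right of each gene, with a line at the mean of 3 libraries. PIP stands at 7186 to 7647 TPM in PRL libraries and 261 to 331 TPM in controls, CLU is lower in every PRL library, and MUC1 overlaps between the groups.

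Summed over the 10 genes, secretory transcripts made up 8556, 8997 and 8851 TPM in the PRL libraries and 1606, 1883 and 1528 TPM in the controls. The sum was 5.26-fold higher in the PRL group. The exact two-sided permutation test over libraries gave p = 0.1, the smallest that 3 against 3 libraries allow, so it cannot reach 0.05. PIP was the largest part of the sum in every PRL library, at 84.5% ± 0.508 on average in the PRL group and 17.8% ± 1.67 in controls (SD, n = 3 each). Without PIP the other 9 genes summed to 1364 ± 12.4 TPM in the PRL group and 1375 ± 164 TPM in controls (SD, n = 3 each), a ratio of 0.992 (exact permutation p = 1). These sums are on TPM, where the median log2 change over all genes was 0.39 on log2(TPM + 1), against 0.01 on the TMM scale. In CPM, CLU averaged 359 in the PRL group and 1649 in controls, MUC1 842 and 548, and AZGP1 335 and 98.9. The level sum without PIP is thus a TPM result, since in CPM the fall of CLU exceeded the rises of MUC1 and AZGP1 together. PIP averaged 2179 CPM in the PRL group and 119 CPM in controls. No sum was tested in CPM. Within the TPM sum AZGP1 and CLU stood in opposite directions. The ratio of AZGP1 to CLU TPM was 2.18, 2.28 and 2.23 in the PRL libraries and 0.134, 0.152 and 0.145 in the controls.

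**Figure D2:**
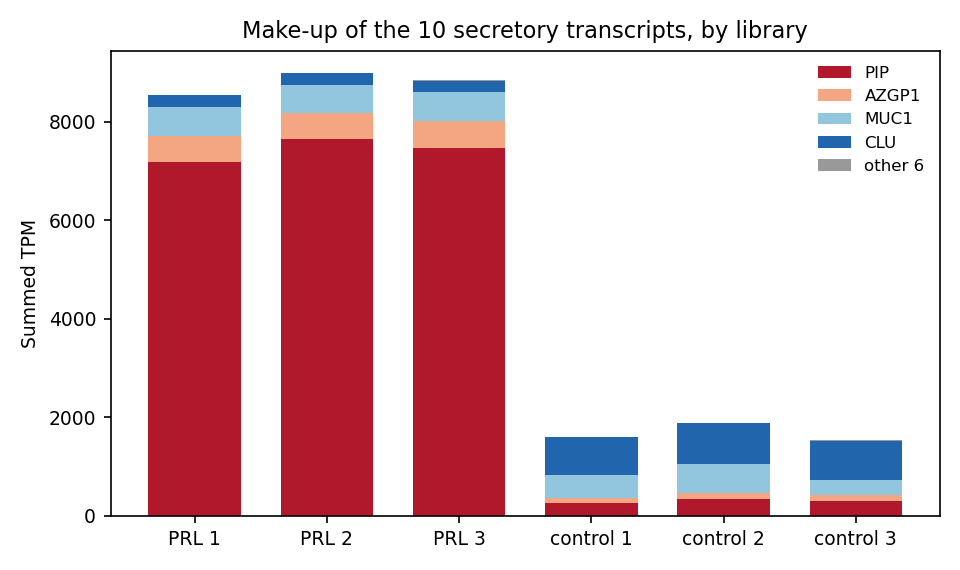
Summed TPM of the 10 secretory transcripts in each library, stacked by gene, PRL libraries at the left and controls at the right. PIP fills most of each PRL bar (84.5% on average), and CLU is the largest block of each control bar (48.3% on average).

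MUC1 encodes a transmembrane mucin of the apical surface that is shed into milk and carried on fat globules. It is NCBI gene 4582, on chromosome 1 from 155185824 to 155192916 on the minus strand. In counts it rose: CPM was 819, 820 and 887 in the PRL libraries and 565, 622 and 458 in the controls, without overlap. The change was 0.62 on the log2 scale (SE 0.11, edgeR adjusted p = 8.2e-04). Per length it did not separate, since TPM was 588, 564 and 586 in the PRL libraries and 451, 584 and 317 in the controls. The call ended in limma on log2(TPM + 1), where the log2 fold change was 0.41 (adjusted p = 0.0811), and on log2(FPKM + 1), where it was 0.21 (adjusted p = 0.340).

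The gap between the units lies in the length that the deposited values assign to MUC1. A count divided by its FPKM (fragments scaled to transcript length and library size) and by the library total gives the length behind it, an average over the gene's transcripts as the authors' tool weighted them. For PIP, AZGP1 and CLU this length was 529, 1132 and 2700 bases in every library, to the nearest base. For MUC1 it was 2576, 2616 and 2678 bases in the PRL libraries and 1453, 1487 and 2049 bases in the controls. PRL libraries were all above the controls, and control 3 lay between controls 1 and 2 and the PRL group. The mean was 2623 ± 51.3 bases in the PRL group and 1663 ± 335 bases in controls (SD, n = 3 each), 1.58-fold longer, with an exact two-sided permutation p = 0.1, the smallest possible. Such a shift was rare: of 10586 genes with FPKM of at least 1 and at least 50 counts in every library, 12 (0.113%) shifted as much in either direction and 4 as much towards longer, MUC1 included. Over these genes the log2 ratio of lengths ran from -0.08 to 0.13 between the lowest and highest 5%. GENCODE lists 23 protein-coding MUC1 transcripts of 516 to 4170 bases, so reads can be divided among many. Values of single transcripts were not analysed here, so the length can stand for a change of transcripts used or of how reads were divided among them, and these cannot be told apart.

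**Figure D3:**
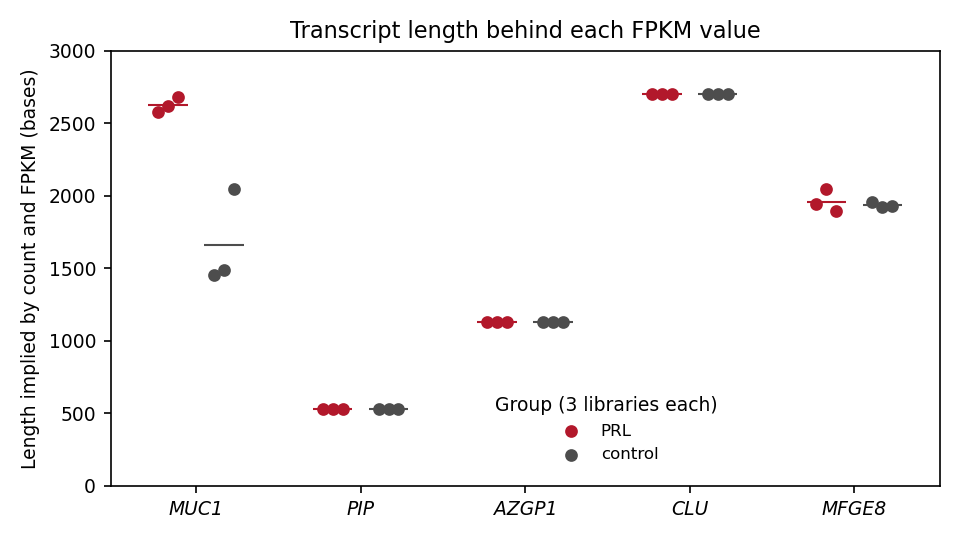
Transcript length in bases implied by count and FPKM, for the 5 abundant genes in each library, PRL in red at the left and control in grey at the right, with a line at the mean. MUC1 moves (2576 to 2678 bases in PRL libraries, 1453 to 2049 in controls), while PIP, AZGP1 and CLU stay at a single length in all 6.

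MFGE8 encodes lactadherin, which coats milk fat globules and bridges dying cells to phagocytes through integrins. It lies on chromosome 15 from 88898683 to 88913411. The PRL libraries held 8.71, 8.22 and 8.54 TPM and the controls 4.51, 5.80 and 4.24 TPM, or 165, 170 and 160 counts against 112, 125 and 92. The groups did not overlap. The log2 fold change was 0.38 (SE 0.14, edgeR adjusted p = 0.0359), and this call is weak. It ended in DESeq2 (adjusted p = 0.104), without control 3 (edgeR adjusted p = 0.0573) and without any single PRL library (edgeR adjusted p = 0.0847 to 0.103).

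**Figure D4:**
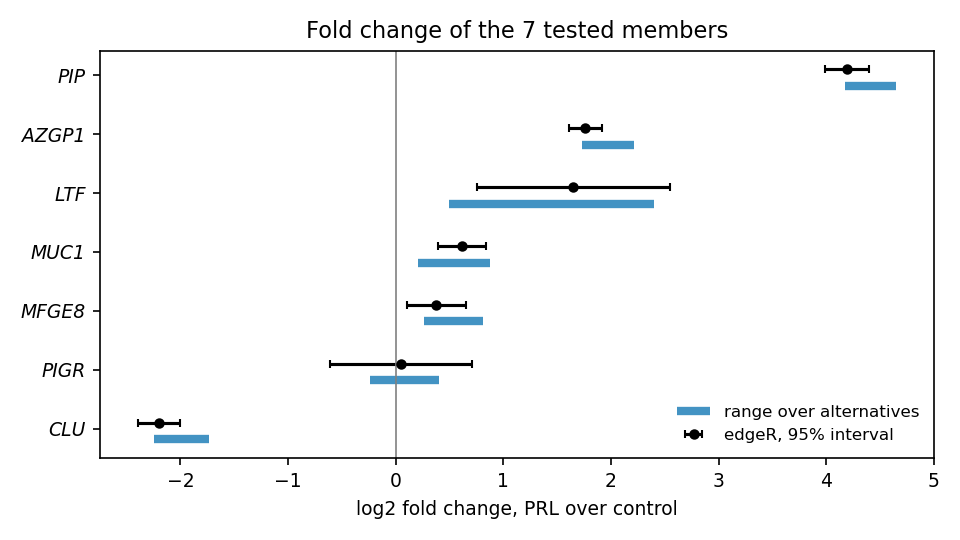
Log2 fold change of PRL over control for the 7 tested transcripts. Black points and bars give the edgeR estimate with its 95% interval, and blue bars the range over the alternative settings. PIP (4.20) and CLU (-2.20) stand apart from the rest, and the range of LTF reaches down to 0.49 where a pseudocount of 1 was added to its low TPM.

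LTF encodes lactoferrin, the iron-binding protein of milk, which neutrophils store too. Counts were 14, 17 and 17 in the PRL libraries and 3, 8 and 2 in the controls, that is 0.540, 0.630 and 0.640 TPM against 0.0900, 0.270 and 0.0700 TPM. All PRL libraries were above all controls, at levels under 1 TPM. Over each group 48 counts stood against 13, a ratio of 3.19 on the TMM scale with a 95% counting interval of 1.70 to 6.42, and the log2 fold change was 1.65 (SE 0.46, edgeR adjusted p = 0.0092). It was 2.40 without control 2, the highest control, and 1.31 without control 3. The neutrophil granule gene MPO had 0, 2 and 0 counts in the PRL libraries and 2, 2 and 0 in the controls, and ELANE had 3, 6 and 13 against 1, 3 and 3.

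PIGR, the polymeric immunoglobulin receptor that delivers IgA into milk, was low in both groups. It had 29, 32 and 23 counts in the PRL libraries and 23, 34 and 13 in the controls, and the groups overlapped. The log2 fold change was 0.05 (SE 0.33, edgeR adjusted p = 0.907), with a 95% interval of -0.61 to 0.71, so changes within that interval are not excluded. JCHAIN, whose product joins the IgA chains that PIGR carries, had 1 count over all 6 libraries.

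The remaining members gave too few reads for a test. XDH encodes xanthine oxidoreductase, the purine enzyme that also helps fat droplets leave the cell, and had 5, 4 and 10 counts in the PRL libraries and 8, 4 and 1 in the controls, a ratio of 1.26 with a 95% counting interval of 0.592 to 2.78. BTN1A1, the butyrophilin that partners it on the globule, had 3, 2 and 2 counts in the PRL libraries and 0, 0 and 1 in the controls. Its ratio was 6.05 with an interval of 0.777 to 272.7, which covers no difference. SLC34A2, a sodium-phosphate cotransporter, had 1, 0 and 1 counts in the PRL libraries and 0, 1 and 0 in the controls, and no fold is given at that level. Intervals cover counting error only.

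**Figure D5:**
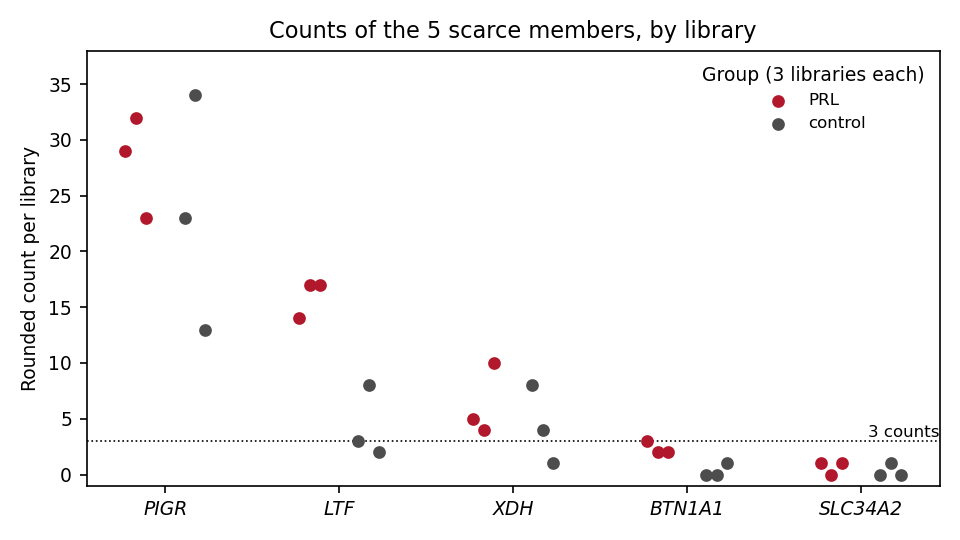
Rounded counts of the 5 scarce transcripts in each library, PRL in red at the left and control in grey at the right. LTF is above its controls in all 3 PRL libraries (14 to 17 against 2 to 8 counts), PIGR and XDH overlap, and BTN1A1 and SLC34A2 stay at or under the dotted line of 3 counts.

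Other products of the secretory cell were read from lists chosen by role. The listed caseins and whey proteins that had values gave no general rise. CSN1S1, CSN2 and LALBA were not found by symbol among the 17891 genes, so nothing can be said of them. CSN3 had 1 count in a control library and none in the PRL libraries. LPO had 5, 10 and 8 counts in the PRL libraries and 1, 0 and 1 in the controls. Of 5 tested genes of this list 1 rose, 3 fell and 1 did not pass (median log2 fold change -0.42, or 0.04 on log2(TPM + 1)). SLPI, a protease inhibitor of mucosal secretions, rose to 6.77 ± 0.641 CPM in the PRL group, against 1.86 ± 0.327 CPM in controls (log2 fold change 1.86, edgeR adjusted p = 1.3e-05). FOLR1, the folate receptor that is shed as a milk folate binder, fell to 99.97 ± 4.04 CPM in the PRL group, against 188.7 ± 24.0 CPM in controls (-0.92, edgeR adjusted p = 2.2e-05). Lysozyme, LYZ, fell by 0.94 on the log2 scale (edgeR adjusted p = 0.0119), a call that ended without PRL 1, without control 1 and on TPM. LYZ is an immune marker too. The third fall was TF, the iron carrier transferrin (-0.42, edgeR adjusted p = 0.0443), whose call or sign changed under 13 of 19 alternatives. The list had 1 fall on log2(TPM + 1), without control 1 and without PRL 1.

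Among milk fat globule and lipid droplet genes, beside the members, 2 of 9 tested rose, 1 fell and 6 did not pass (median 0.15). CD36, a fatty acid receptor of the globule membrane, rose to 169.8 ± 1.43 CPM in the PRL group, against 20.5 ± 2.66 CPM in controls (log2 fold change 3.05, edgeR adjusted p = 4.5e-09), a larger change than those of MUC1 and MFGE8. LPL, lipoprotein lipase, rose at under 1 CPM (1.62, edgeR adjusted p = 0.0040) and passed the filter through the PRL libraries alone. The count of 2 and the median of this list are thus a description. PLIN3 fell by 0.29 (edgeR adjusted p = 0.0041) but the call ended by library totals and on FPKM, and its mean TPM was higher, at 52.7 in the PRL group and 47.6 in controls.

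Of 8 tested genes on the apocrine and secretoglobin list, beside the members, 5 rose, 2 fell and 1 did not pass, with a median log2 fold change of 1.24. CRISP3, a cysteine-rich secretory protein, rose to 234.6 ± 4.41 CPM in the PRL group, against 24.9 ± 1.53 CPM in controls (log2 fold change 3.24, edgeR adjusted p = 8.4e-10). SCGB2A2, mammaglobin, had 64, 59 and 78 counts in the PRL libraries and 1, 2 and 3 in the controls. It passed the filter through the PRL libraries alone, which makes the count of 5 and the median of this list a description.

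Genes that carry prolactin and steroid input to the secretory cell rose in 6 of 12 cases, 2 fell and 4 did not pass (median log2 fold change 0.43). STAT5A rose by 2.94 on the log2 scale to 10.6 ± 0.417 CPM in the PRL group, against 1.38 ± 0.281 CPM in controls (edgeR adjusted p = 3.4e-07). ELF5, the transcription factor of alveolar secretory cells, rose to 119 ± 3.48 CPM in the PRL group, against 44.2 ± 5.20 CPM in controls (1.43, edgeR adjusted p = 8.3e-07). By library totals 9 rose and 1 fell.

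BTN1A1 lies in a butyrophilin cluster on chromosome 6 between 26365159 and 26510422, and all 5 neighbours of the BTN2A and BTN3A groups, some of which signal to gamma-delta T cells, rose. They made up the 5 risen of 6 tested butyrophilins, and BTNL9 did not pass (median log2 fold change 0.67). BTN3A3 rose the most, to 8.03 ± 0.677 CPM in the PRL group, against 2.20 ± 0.208 CPM in controls (1.87, edgeR adjusted p = 5.3e-06), and BTN3A1 rose by 1.25 (edgeR adjusted p = 2.0e-06). These genes resemble one another, so their separate values are uncertain. Of 4 tested phosphate transporters beside SLC34A2, SLC20A1 fell to 28.1 ± 0.912 CPM in the PRL group, against 67.4 ± 5.83 CPM in controls (-1.26, edgeR adjusted p = 1.2e-06), and XPR1 rose by 0.24 (edgeR adjusted p = 0.0455), a call lost under 9 of the alternatives. Of 8 tested mucins beside MUC1, 2 rose and 6 did not pass. They were MUC3A (log2 fold change 1.78, edgeR adjusted p = 0.0010) and MUC5B (1.22, edgeR adjusted p = 0.0248), which averaged 1.64 and 0.766 CPM in the PRL group and 0.473 and 0.321 CPM in controls. Both passed the filter through the PRL libraries alone, so the count of 2 risen mucins is a description. The MUC5B call was lost under 5 of 15 alternatives, among them DESeq2 and leaving out control 1, control 2 or PRL 3.

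Of 9 tested close relatives and partners of the members 4 rose, 2 fell and 3 did not pass (median log2 fold change 0.31). ITGAV and ITGB5 encode the paired chains of an integrin receptor for MFGE8. ITGAV rose by 0.31 (edgeR adjusted p = 0.0361), a call lost under 5 of 19 alternatives, among them DESeq2 and leaving out any PRL library. ITGB5 fell to 35.9 ± 0.669 CPM in the PRL group, against 82.2 ± 9.49 CPM in controls (-1.20, edgeR adjusted p = 2.8e-06). B2M, the light chain that pairs with class I molecules, rose to 1232 ± 20.1 CPM in the PRL group, against 269 ± 39.1 CPM in controls (2.19, edgeR adjusted p = 1.8e-07). Of 6 tested genes of purine breakdown beside XDH 1 rose and 1 fell. They were the urate exporter gene ABCG2, which had 19, 17 and 21 counts in the PRL libraries and 4, 5 and 6 in the controls (1.69, edgeR adjusted p = 0.0016) and passed the filter through the PRL libraries alone, and the purine salvage gene HPRT1 (-0.54, edgeR adjusted p = 1.8e-04). The HPRT1 call was lost on TPM. Since ABCG2 entered through its PRL libraries, the count of 1 risen is a description.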

How the data were processed

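RNA of 6 T47D libraries was extracted with Trizol, per the labels. HISAT2 2.1.0, Bowtie2 2.3.4.3 and the build GRCh38.p13 are named, without roles, in the submitters' processing notes. Which tool counted, with which annotation and strand setting, is not given in the sources used here. The authors deposited estimated counts, FPKM and TPM for each gene and library, per the file headers. The estimated counts, of which 44.1% to 45.9% per library were not whole, were rounded here. The authors' 6 columns of group means were not used.

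The members and lists were chosen with earlier results of these data known. Members are the listed symbols. Others named are PRL, the 3 genes of a list with the smallest adjusted p, list members compared with a member, and marker genes. Some genes that this rule names are not reported here. SLC34A2, BTN1A1 and XDH did not pass filterByExpr. A member with at most 3 counts in every library counts as below detection. R 4.3.3 with edgeR 4.0.16 (robust quasi-likelihood fit, TMM, group as the only term) gave fold changes. The SE follows from the fold change and the F statistic. Alternatives were other scalings, filters, DESeq2 1.42.0, limma 3.58.1 (voom, and limma-trend on logged FPKM or TPM, pseudocount 1 or 0.1, mean at least 1), the replicate number as a block and each library left out. Coordinates are from GENCODE 29 on GRCh38 and promoter windows from RefSeq on GRCh38.p14. If the replicates of a group shared a culture, p-values cover the spread between libraries and not between cultures.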

Additional observations from a re-analysis of the deposited data

How the results depend on the processing

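The rises of PIP and AZGP1 and the fall of CLU kept their direction and call under each of 19 alternatives. LTF kept them under the 15 that tested it, but it entered the test through its PRL libraries alone. The number of members higher in the PRL group was 5 of 7, and 3 of 5 on log2(FPKM + 1), log2(TPM + 1) and log2(TPM + 0.1), where low genes were filtered and MUC1 did not pass (adjusted p of 0.340, 0.0811 and 0.0827, and 0.0998 without a filter). It was 4 of 9 in DESeq2, 4 of 6 with a CPM of at least 1 in 3 libraries, and 4 to 5 with a library left out, and CLU was the 1 lower member throughout. BTN1A1 passed on log2(TPM + 1) without a filter (adjusted p = 0.0476) and not in edgeR without a filter (0.129). PIGR, which did not pass, turned to -0.24 without control 3 and -0.05 without PRL 2, and ran from -0.24 to 0.40 over all libraries left out in turn. The fold of the summed TPM was 0.992 with PIP left out of the sum. Genes changed numbered 8854, and 7590 to 9952 with a library left out. Over all genes the median change was 0.26 by library totals, 0.20 on log2(FPKM + 1) and 0.39 on log2(TPM + 1), against 0.01, and 72.9%, 69.9% and 83.8% of called genes were higher, against 51.4%. The FPKM and TPM settings also changed the test and the filter, and without a filter the TPM median was 0.23 (84.9% higher). By library totals the casein list had 1 higher and 2 lower genes. Same-numbered libraries did not deviate together (correlations of -0.14, 0.01 and -0.10), so no pairing by number was visible. With 3 libraries per group such correlations cannot exclude a pairing. With the replicate number as a block 8531 genes changed and the members' calls were the same, 5 higher and 1 lower. Counts under about 10 per library limit LTF, XDH, BTN1A1 and SLC34A2.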
